A study of Homo sapiens with 6 samples.

Results

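Levels of 10 genes that set the threshold of antigen receptor and kinase signalling were followed in Raji cells with raised IRF4. They are UBASH3B, UBASH3A, PTPRJ, PTPRC, PTPN6, PTPN22, PTPN2, PAG1, CSK and INPP5D, which are 10 of the 23459 genes in the count table, matched by Entrez identifier to their symbols. Raji is an established human B cell line, grown from a Burkitt lymphoma that arose in the germinal centre. The 3 IRF4-overexpressing libraries came from Raji cells infected for 5 days with lentivirus carrying human IRF4 cDNA, and the 3 control libraries from Raji cells given the empty vector. Selection in puromycin (3 µg/ml, 7 days) followed in both groups, so integration of vector and drug selection are common to all 6 libraries. Whether each replicate had its own infection or culture is not in the labels, so p-values here gauge only library-to-library spread, part of which may be technical.

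The set was chosen by role and by measured log2 fold changes of this same comparison: UBASH3B, PTPRJ, PTPRC and PAG1 had already been seen among the genes that fell. The values below are therefore a description and not a test of the set. Totals ran from 33588248 to 46210702 counts in IRF4-overexpressing libraries and from 27681979 to 41510523 in control libraries. IRF4 (Entrez gene 3662) averaged 132 ± 15.8 CPM (counts relative to a library size scaled by TMM) in IRF4-overexpressing libraries and 1.25 ± 0.203 CPM in control libraries (SD, n = 3 each). Within groups the libraries differed along an axis that held 74.3% of the variance. IRF4-overexpressing replicate 1 lay farthest out on it, at a score of -41.7, while the other libraries scored from -12.8 to 22.3. Values were centred within groups first, so each group falls on both sides of 0. IRF4-overexpressing replicates 2 and 3 and control replicate 1 were on one side, called side A here, and the other libraries on side B. Leaving out IRF4-overexpressing replicate 1 therefore leaves that group on a single side.

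Signalling from the B cell receptor starts when SRC-family kinases such as LYN phosphorylate the receptor tails and SYK docks there. A brake in this system can remove phosphate from SYK or from the activated kinases, hold SRC-family kinases closed, or destroy the lipid that PI3 kinase makes. The roles are not all of one sign. PTPRC (CD45) and PTPRJ (CD148) are receptor phosphatases that strip the inhibitory tail phosphate from SRC-family kinases and so can also promote signalling, whereas CSK puts that phosphate on and PAG1 recruits CSK to the membrane.

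In IRF4-overexpressing cells UBASH3B, PTPRJ, PAG1 and PTPRC were lower, by 1.18, 0.91, 0.61 and 0.53 on the log2 scale, and the other 6 genes did not pass the threshold. In the edgeR quasi-likelihood fit over 12079 genes, called at an adjusted p under 0.05 (Benjamini-Hochberg), 4 of the 10 were called lower and 0 higher, against 0.182% and 2.98% of all genes tested. These 4 calls are the values that led to the choice of genes, so nothing is read from these shares. At an unadjusted p under 0.05 the fit had 7 of the 10, against 19.5% of all genes tested in either direction, and DESeq2 called PTPN6 lower besides the 4, where it called 1.45% of all genes lower. The median log2 fold change was -0.57 over the 10 genes and 0.01 over all genes tested. The 7 genes include the 4 and UBASH3A, which passed the filter on low counts through the control libraries alone. The median holds the same genes, so nothing is read from that count or from the median.

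**Figure D1:**
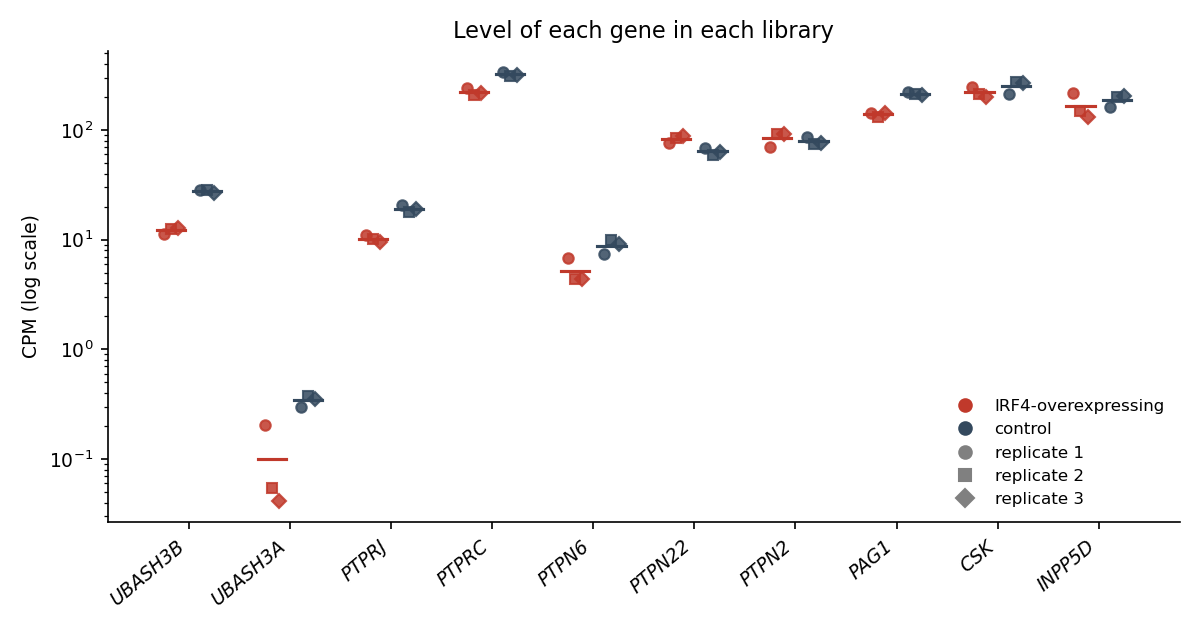
Level of the 10 genes in CPM on a log axis, with 1 point per library and a bar at the mean of 3 libraries for IRF4-overexpressing (red) and control (dark) cells. UBASH3B, UBASH3A, PTPRJ, PTPRC, PTPN6 and PAG1 have all red points below all dark points, while PTPN2, CSK and INPP5D overlap.

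The promoter windows of 3 of the genes are shown. UBASH3B had the deepest called fall and PTPRC the highest level per length among the called genes. INPP5D was not called, and its window held the 1 match to the ETS-IRF composite element. Each is the 250 bases before the RefSeq transcription start in GRCh38.p14, on the plus strand, at chr11:122655472-122655721 for UBASH3B, chr1:198638790-198639039 for PTPRC and chr2:233060092-233060341 for INPP5D. Capitals mark matches on either strand to the interferon response element core GAAANNGAAA, the ETS-IRF composite element GGAANNGAAA, the octamer ATGCAAAT, the STAT element TTCNNNGAA or the ETS core GGAAG.
UBASH3B: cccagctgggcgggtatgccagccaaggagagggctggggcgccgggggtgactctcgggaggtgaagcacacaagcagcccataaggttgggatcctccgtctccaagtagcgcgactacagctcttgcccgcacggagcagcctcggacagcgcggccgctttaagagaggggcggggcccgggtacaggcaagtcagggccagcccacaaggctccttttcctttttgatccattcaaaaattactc
PTPRC: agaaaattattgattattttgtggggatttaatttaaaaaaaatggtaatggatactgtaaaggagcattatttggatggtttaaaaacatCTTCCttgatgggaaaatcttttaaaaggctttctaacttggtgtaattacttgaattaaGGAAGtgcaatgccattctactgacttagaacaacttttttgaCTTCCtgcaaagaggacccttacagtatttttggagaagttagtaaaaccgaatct
INPP5D: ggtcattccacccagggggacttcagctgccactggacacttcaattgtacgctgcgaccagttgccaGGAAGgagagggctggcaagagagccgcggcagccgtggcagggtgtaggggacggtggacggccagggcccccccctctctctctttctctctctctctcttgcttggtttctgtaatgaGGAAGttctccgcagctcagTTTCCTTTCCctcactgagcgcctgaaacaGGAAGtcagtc
Windows were found in the RefSeq table for 7 of the 10 genes, 8 windows in all because PTPN6 has a second start, and not for UBASH3A, PTPRJ or PAG1. The composite element, to which IRF4 binds with an ETS partner, was present in 1 of the 8 windows, that of INPP5D, against 2.41% of 35114 windows of all genes. The interferon core, the octamer and the STAT element were in 0 of the 8, against 3.02%, 1.63% and 6.57% of all windows. The ETS core was in 7 of the 8 and in 65.1% of all windows, and UBASH3B was the gene without it. The composite match in INPP5D overlaps none of its ETS core matches. A match or its absence describes the letters of the window alone.

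UBASH3B encodes a phosphatase of the histidine phosphatase fold that dephosphorylates SYK and ZAP70 and binds the ubiquitin ligase CBL. UBASH3B stood at 11.2, 12.6 and 12.9 CPM across IRF4-overexpressing replicates 1 to 3, against 28.5, 28.3 and 26.5 CPM across control replicates 1 to 3. The groups were far apart relative to their spread, at 12.2 ± 0.897 CPM in IRF4-overexpressing and 27.8 ± 1.07 CPM in control libraries (SD, n = 3 each). The log2 fold change was -1.18 (SE 0.10), which leaves 0.44 of the control level. UBASH3B was the one gene of the 10 that passed in all 6 fits without a single library, with log2 fold changes of -1.22 to -1.14.

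UBASH3A, its paralog, has weak phosphatase activity and is known mainly from T cells. UBASH3A had 7, 2 and 2 counts across IRF4-overexpressing replicates 1 to 3, against 12, 10 and 13 counts across control replicates 1 to 3. All 3 IRF4-overexpressing libraries were below all 3 control libraries, but the gene rests on 11 counts against 35 in all. UBASH3A passed the filter on low counts through the control libraries alone, so a difference was built into its being tested. Its log2 fold change was -1.83 (SE 0.55) and ranged from -2.78 to -1.39 without single libraries. T and NK cell markers were near 0 in both groups, with CD2, CD7, CD8A and GNLY at 0 counts in all 6 libraries. The 10 such markers in the table summed to 0.81 to 0.932 CPM in IRF4-overexpressing and 0.409 to 0.957 CPM in control libraries.

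The receptor phosphatase PTPRJ had 11.1, 10.1 and 9.45 CPM across IRF4-overexpressing replicates 1 to 3, against 20.6, 17.8 and 19.2 CPM across control replicates 1 to 3. The groups did not overlap, and PTPRJ fell by 0.91 on the log2 scale (SE 0.11). Within sides A and B of the library axis the log2 ratios of mean CPM were -1.07 and -0.73. Here and below, the control value of side A is control replicate 1 alone. The IRF4-overexpressing value of side B is replicate 1 alone, so neither ratio is replicated in both groups.

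PTPRC, which marks all nucleated blood cells, had 242, 207 and 220.1 CPM across IRF4-overexpressing replicates 1 to 3, against 338, 314 and 318 CPM across control replicates 1 to 3. All IRF4-overexpressing libraries were again below all control libraries. The mean was 223 ± 17.6 CPM in IRF4-overexpressing and 323 ± 12.4 CPM in control libraries (SD, n = 3 each), a log2 fold change of -0.53 (SE 0.09). Within sides A and B the log2 ratios of mean CPM were -0.66 and -0.38.

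PAG1 is the transmembrane adaptor that, once phosphorylated, docks CSK beside SRC-family kinases. PAG1 had 144, 133 and 145 CPM across IRF4-overexpressing replicates 1 to 3, against 221, 214 and 208 CPM across control replicates 1 to 3. The groups did not overlap, and PAG1 fell by 0.61 (SE 0.08). CSK, the kinase it docks, showed no such gap. CSK had 249.6, 214 and 199 CPM across IRF4-overexpressing replicates 1 to 3, against 214, 276 and 269 CPM across control replicates 1 to 3. The CSK groups overlapped, with control replicate 1 among the IRF4-overexpressing values, and the log2 fold change was -0.20 (SE 0.14).

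PTPRJ, PTPRC and PAG1 passed the threshold in 1 of the 6 fits without a single library, the one without IRF4-overexpressing replicate 1, and missed it in the other 5. Their log2 fold changes in those 6 fits stayed at -0.98 to -0.85, -0.61 to -0.48 and -0.64 to -0.56. Without IRF4-overexpressing replicate 1, 7 of the 10 genes were called lower and 1 higher, but in that fit 3071 and 2436 of all genes were.

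**Figure D2:**
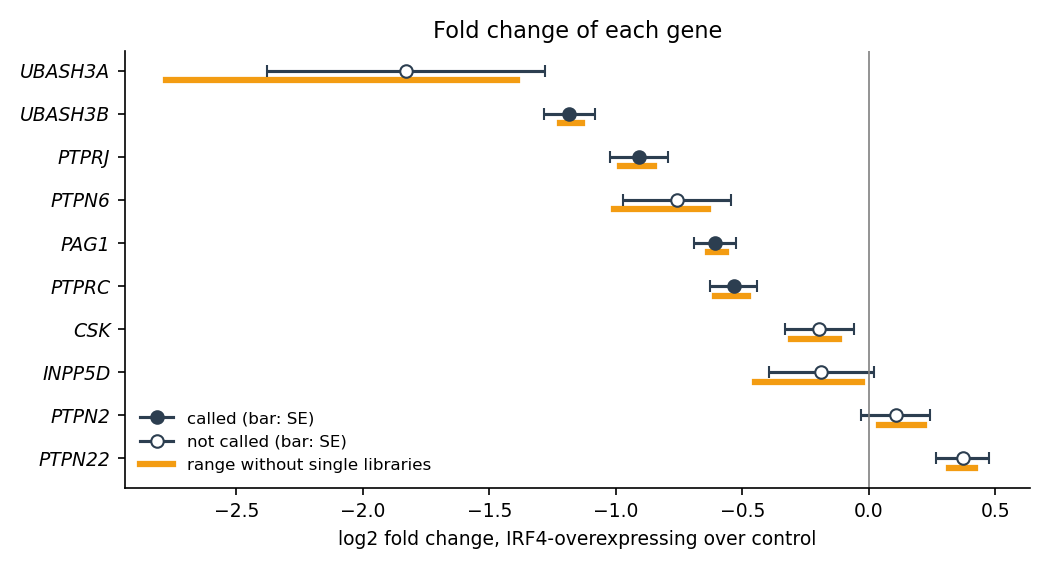
Log2 fold change of the 10 genes, IRF4-overexpressing over control, with the SE as a bar and, in orange, the range over the 6 fits without a single library. Filled points mark the 4 genes called, of which UBASH3B lies farthest from 0 at -1.18, and the range of UBASH3A runs from -2.78 to -1.39.

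The cytosolic tyrosine phosphatases PTPN6, PTPN22 and PTPN2 did not pass the threshold and had fold changes of both signs. PTPN6 encodes SHP-1, which inhibitory receptors such as CD22 and CD72 recruit through phosphorylated tail motifs. PTPN6 had 6.83, 4.37 and 4.41 CPM across IRF4-overexpressing replicates 1 to 3, against 7.39, 9.93 and 9.05 CPM across control replicates 1 to 3. The groups did not overlap, but IRF4-overexpressing replicate 1 lay nearer to control replicate 1 than to the other libraries of its own group. The log2 fold change was -0.76 (SE 0.21), and DESeq2 called PTPN6 lower with -0.77. With a term for the library axis PTPN6 had -0.61 (SE 0.11) and was called lower. That term came from the same counts, which makes its p-values too small.

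PTPN22 encodes LYP, which removes the activating phosphate of SRC-family kinases and partners with CSK. PTPN22 had 76.0, 84.0 and 88.6 CPM across IRF4-overexpressing replicates 1 to 3, against 69.3, 59.8 and 63.2 CPM across control replicates 1 to 3. PTPN22 was the one gene of the 10 with all IRF4-overexpressing libraries above all controls. Its log2 fold change of 0.37 (SE 0.10) missed the threshold. With a term for the library axis 0.31 (SE 0.06) passed it, but that term came from the same counts, which makes its p-values too small. The log2 ratios of mean CPM were 0.32 and 0.31 within sides A and B.

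PTPN2 encodes TC-PTP, which dephosphorylates JAK kinases and STAT factors and so limits cytokine and interferon signalling. PTPN2 had 69.9, 93.0 and 92.4 CPM across IRF4-overexpressing replicates 1 to 3, against 85.9, 74.6 and 76.6 CPM across control replicates 1 to 3. The groups overlapped, and the higher values in both groups came from the libraries of side A. The log2 fold change was 0.11 (SE 0.14), and with a term for the library axis -0.0011 (SE 0.072).

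INPP5D encodes SHIP1, which dephosphorylates the PI3 kinase lipid product at the membrane and is recruited by the inhibitory Fc receptor FCGR2B. INPP5D had 219, 149 and 131 CPM across IRF4-overexpressing replicates 1 to 3, against 161, 202 and 205 CPM across control replicates 1 to 3. The groups overlapped, and INPP5D varied with the axis: it was lowest in the 3 libraries of side A. Its log2 fold change was -0.19 (SE 0.21), ran from -0.45 to -0.03 without single libraries, and its log2 ratios of mean CPM were -0.20 within side A and 0.11 within side B.

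Of the 10 genes, 6 had no overlap with IRF4-overexpressing libraries lower and 1 with them higher, against 11.9% and 13.5% of all genes tested. The 6 include UBASH3B, PTPRJ, PTPRC and PAG1, chosen with their falls known, and UBASH3A, which passed the filter through the control libraries alone. Nothing is therefore read from these shares. In bulk RNA, less RNA per cell and a smaller share of cells that express a gene cannot be told apart.

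**Figure D3:**
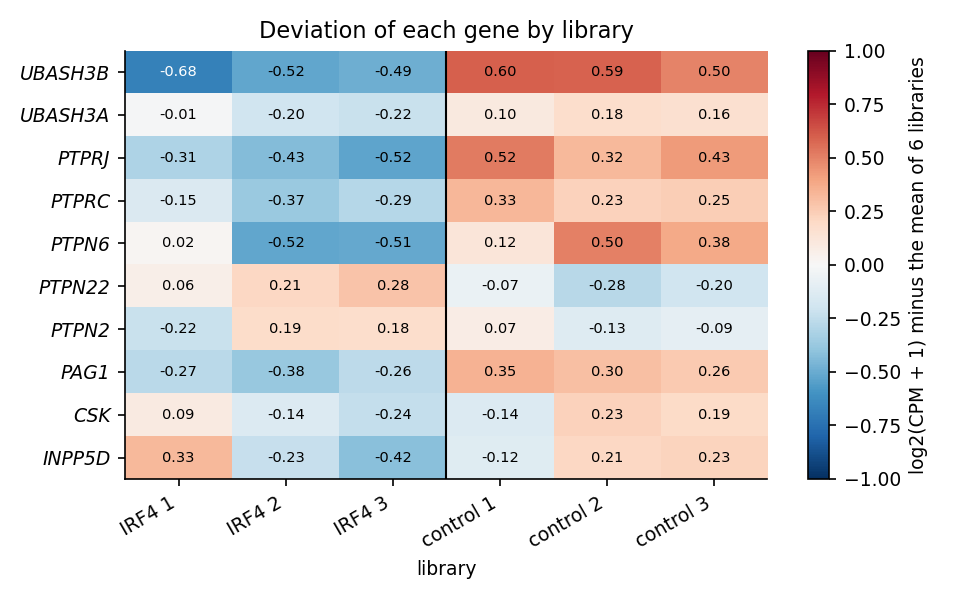
Deviation of log2(CPM + 1) of each of the 10 genes from its mean over 6 libraries, by library, with blue below and red above the mean. UBASH3B, PTPRJ, PTPRC and PAG1 are blue in all 3 IRF4-overexpressing libraries and red in all 3 controls. UBASH3A has the same signs, though only -0.01 in IRF4-overexpressing replicate 1. INPP5D is 0.33 in IRF4-overexpressing replicate 1 against -0.23 and -0.42 in replicates 2 and 3.

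Levels were put in order as CPM per kilobase of the deposited gene width. In IRF4-overexpressing libraries CSK was highest at 64.4 ± 7.65 CPM per kilobase (SD, n = 3), followed by INPP5D, PTPRC, PTPN2, PTPN22 and PAG1 at 34.4 to 13.1. PTPN6, UBASH3B and PTPRJ were low at 1.86, 1.77 and 1.09, and UBASH3A was lowest at 0.0303. In that order INPP5D and PTPRC, PTPN2 and PTPN22, and PTPN6 and UBASH3B were neighbours whose means differed by less than the sum of their SDs. In control libraries CSK was again highest at 73.8 ± 9.97 CPM per kilobase, PTPRC came before INPP5D at 45.4 and 39.2, and PAG1 came before PTPN22 at 19.9 and 15.7. UBASH3B came before PTPN6 there, at 4.02 and 3.14. In control libraries PTPRC and INPP5D, and PTPN2 and PAG1, differed by less than the sum of their SDs. UBASH3B, at 1.77 in IRF4-overexpressing and 4.02 CPM per kilobase in control libraries, was thus a low transcript in both groups next to CSK.

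To set these genes beside the rest of their pathway, 5 lists were read from the same fit. They are other tyrosine phosphatases, inhibitory adaptors and ligases, inhibitory receptors, inositol lipid phosphatases, and SRC and SYK family kinases. The lists were drawn up by role but with earlier results of these data known, so their counts are a description. Of 90 genes listed, 59 were tested and 31 were too low to test. EdgeR called 4 of the 59 higher and 1 lower, against 2.98% and 0.182% of all genes tested. The medians of the 5 lists, -0.25 to 0.43 on the log2 scale, stand beside 0.01 for all genes tested and describe the lists only.

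Among 15 other tyrosine phosphatases tested, PTPRR fell, PTPN3 rose and 13 did not pass. In the edgeR fit 6 of the 15 had an unadjusted p under 0.05, against 19.5% of all genes tested. PTPRR, a receptor-type phosphatase that acts on MAP kinases, had 1.48, 1.43 and 1.12 CPM across IRF4-overexpressing replicates 1 to 3, against 5.28, 5.06 and 5.66 CPM across control replicates 1 to 3. PTPRR fell by 1.99 on the log2 scale (SE 0.15; edgeR quasi-likelihood adjusted p = 0.00172), on 158 counts in IRF4-overexpressing and 555 in control libraries, and passed without each library in turn. PTPN3, a phosphatase tied to the cortical cytoskeleton, averaged 5.3 ± 0.634 CPM in IRF4-overexpressing and 2.04 ± 0.459 CPM in control libraries (SD, n = 3 each). PTPN3 rose by 1.37 on the log2 scale (SE 0.19; edgeR quasi-likelihood adjusted p = 0.0151) and passed in 3 of the 6 fits without a library. The median log2 fold change of the 15 was -0.25.

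Among 14 inhibitory receptors tested, 3 rose and 0 fell, and 5 had an unadjusted p under 0.05, where 2.98% of all genes tested were called higher and 19.5% had such a p. The 3 belong to the Fc receptor-like family, whose tails carry motifs that can recruit SHP-1. FCRL3 had 24.5, 16.9 and 18.9 CPM across IRF4-overexpressing replicates 1 to 3, against 10.5, 10.0 and 10.3 CPM across control replicates 1 to 3 (0.97 on the log2 scale, SE 0.15; edgeR quasi-likelihood adjusted p = 0.0214). FCRL4 rose 2.39-fold (edgeR adjusted p = 0.00535) and FCRL5 rose 2.47-fold (edgeR adjusted p = 0.0266). Without single libraries FCRL4 passed in 6 of 6 fits, FCRL3 in 2 and FCRL5 in 1. CD22, CD72 and FCGR2B, which engage SHP-1 or SHIP1 in B cells, stood at -0.51, 0.16 and 0.0041 on the log2 scale, short of the threshold.

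In the kinases that these brakes act on, edgeR called 0 of 7 tested genes, with 3 at an unadjusted p under 0.05 (19.5% of all genes, as for the lists that follow) and 0 by DESeq2 or limma-voom. LCK and BLK, both SRC-family kinases, had the smallest p, with log2 fold changes of 0.46 and 0.26 (SE 0.15 and 0.09, edgeR adjusted p = 0.173 and 0.196). SYK, the substrate of UBASH3B, had -0.05 (SE 0.08), and LYN -0.21 (SE 0.16). Of 12 inhibitory adaptors and ligases edgeR called 0, with 2 at an unadjusted p under 0.05 and 0 by DESeq2 or limma-voom. LIME1, another adaptor that binds CSK, had 0.44 and CBL, the ligase that UBASH3B binds, -0.45 (SE 0.12 and 0.17, edgeR adjusted p = 0.119 and 0.221). Of 11 inositol lipid phosphatases edgeR called 0, with 1 at an unadjusted p under 0.05, 1 higher by DESeq2 and 0 by limma-voom. INPP4B and SYNJ2 had log2 fold changes of 1.02 and 0.20 (SE 0.24 and 0.12, edgeR adjusted p = 0.0859 and 0.356).

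**Figure D4:**
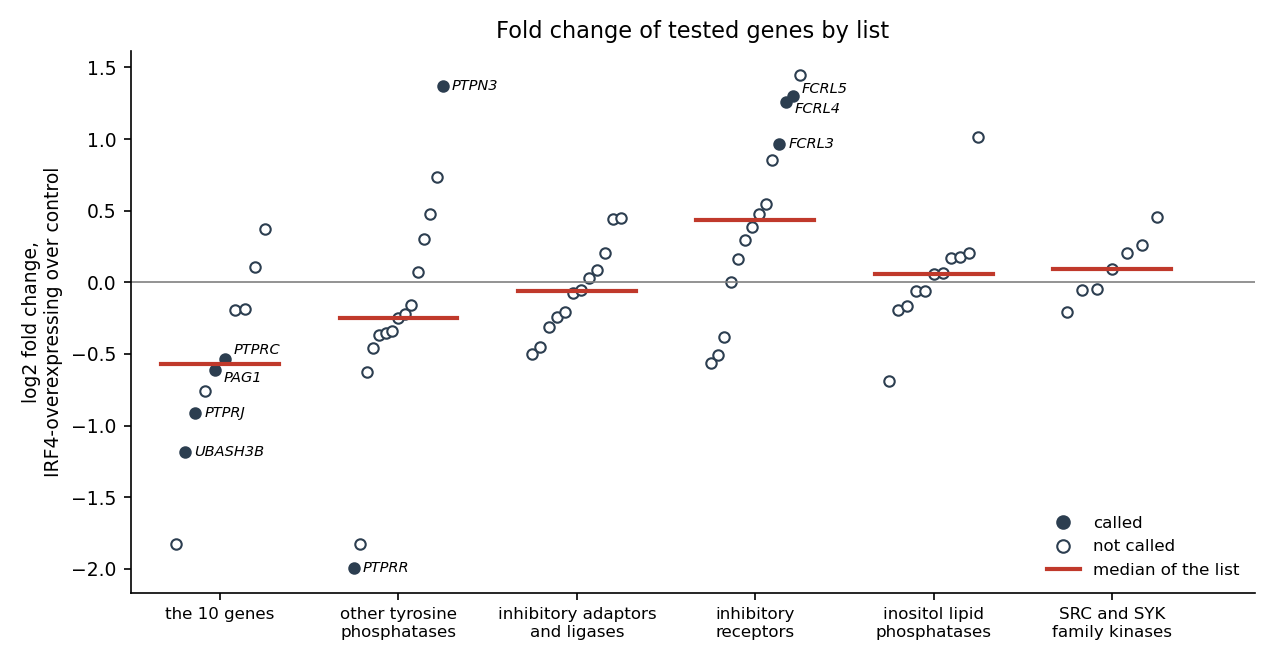
Log2 fold change, IRF4-overexpressing over control, of every tested gene in the set of 10 and in the 5 lists, with filled points for called genes and a red bar at each list's median. The medians of the 5 lists lie between -0.25 and 0.43, and the called genes outside the 10 are PTPRR, PTPN3, FCRL3, FCRL4 and FCRL5.

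The genes nearest in pattern were found by the root mean square difference of centred log2(CPM + 1) over the 6 libraries, among 9492 other genes averaging 5 CPM or more. For UBASH3B these were NQO1, PTPRJ and MAP2K6, at 0.19, 0.19 and 0.26. For PTPRJ they were SLC16A6, PNPLA3 and KPNA6, at 0.13, 0.14 and 0.15. For PTPRC they were PRKCB, CFL2 and IKZF2, at 0.04, 0.06 and 0.06. For PAG1 they were MAP2K6, PRKCB and PTPRC, at 0.04, 0.05 and 0.06. All of them had lower means in IRF4-overexpressing libraries, with log2 fold changes of -0.91 to -0.45. Since likeness was measured over the same 6 libraries, this direction follows from the choice. PNPLA3, KPNA6 and IKZF2 did not pass the threshold (edgeR quasi-likelihood adjusted p = 0.0517, 0.0647 and 0.0843).

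The 8 B cell markers were expressed in every library and summed to 4825 to 5854 CPM in IRF4-overexpressing and 5108 to 5912 CPM in control libraries. EdgeR called 0 of the 8, with 1 at an unadjusted p under 0.05 and 0 by DESeq2. Myeloid markers, of cells that also express PTPRC, PTPN6 and INPP5D, summed to 5.81 to 9.33 CPM in IRF4-overexpressing and 3.14 to 3.57 CPM in control libraries over 7 genes, with ITGAM called higher and MPO at 0. CD14 and MPO were too low to test. Of the others, 2 had an unadjusted p under 0.05, ITGAM and CSF1R, against 19.5% of all genes tested. EdgeR called 2.98% of all genes tested higher. DESeq2 called both ITGAM and CSF1R higher, where it called 577 of 12079 genes higher. CSF1R had 4.07, 1.22 and 1.39 CPM across IRF4-overexpressing replicates 1 to 3, against 0.324, 0.521 and 0.438 CPM across control replicates 1 to 3, with a log2 fold change of 2.38 (SE 0.56) short of the edgeR threshold. FCER1G went the other way, at -0.73 on the log2 scale (SE 0.32), and was not called. LYZ and CD68 had 0.18 and 0.20 (SE 0.25 and 0.24) and were not called either. The part of the myeloid markers in these results was not tested. The 6 kidney and epithelial markers, chosen because the virus was packaged in 293T cells, summed to 0.32 to 0.837 CPM in IRF4-overexpressing and 0.0996 to 0.274 CPM in control libraries, with EPCAM, KRT18 and LHX1 at 0. The higher sum came mainly from CDH1, with 54 counts in IRF4-overexpressing and 5 in control libraries. KRT8 went the other way, with 6 and 12 counts. Both were too low to test.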

How the data were processed

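RNA-seq libraries of Raji cells (3 IRF4-overexpressing, 3 control) were made with a stranded, poly(A)-selecting kit, per the labels' protocols. The deposited counts are raw reads per gene in 6 columns, with no pooling or scaling by the authors as far as the values show, and 1 other deposited column, a gene width in bases by its name and values. The control columns are named WT. The builds mm9 and hg19 are given for the series per the submitters' processing notes, and hg19 was taken to be that of the human samples. Aligner, counting tool, annotation and strand setting are not given in the sources used here, so reads of overlapping or antisense genes cannot be told apart. GENCODE annotates antisense genes across UBASH3B, PTPRJ, PTPRC and PTPN22, and long non-coding RNA genes on the opposite strand across PAG1. Symbols were matched by Entrez identifier to a RefSeq gene table of GRCh38.p14 for 23308 of 23459 rows. The other 151 stayed in the tests.

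All genes kept by filterByExpr (12079) were fitted with edgeR 4.0.16 (R 4.3.3), TMM scaling, group as the sole term and the quasi-likelihood F-test (two-sided), adjusted by Benjamini-Hochberg over all of them. The SE is the absolute log2 fold change over the root of F. CPM used TMM-scaled library sizes, and log2(CPM + 1) served for patterns and the plot of deviations. Named were the 10 genes, IRF4, from each list up to 4 called genes or the 2 of smallest p, 3 nearest genes for 4 of the 10, and listed markers. CD22, CD72, FCGR2B, SYK and LYN were added after their values were seen, for their roles beside the 10. The genes and lists were chosen with earlier results of these data known. Alternatives were other scalings and filters, DESeq2 1.42.0, limma-voom (limma 3.58.1), a replicate block, an axis term, leaving out IRF4, and leaving out each library. Because the sides came from the counts being tested, p-values with that term are too small. The fit was tested on simulated data. No replicate pair agreed within sampling noise (chi-square per gene 6.6 to 199.8). Figures used matplotlib 3.10.9.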

Additional observations from a re-analysis of the deposited data

How the results depend on the processing

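The 4 called falls among the 10 genes were found with both other scalings, both other filters, limma-voom and IRF4 left out. DESeq2 found them with PTPN6 added. A term for the library axis, whose p-values are too small, also called the 4 and PTPN6. With single libraries left out, 1 to 7 of the 10 were called lower and 0 to 1 higher, against 3 to 3071 and 120 to 2436 of all genes, and 1 to 18 lower and 1 to 11 higher in the 5 lists. Library sizes alone called 13 of all genes lower and gave a median of 0.10 on the log2 scale over all genes. DESeq2 called 577 of all genes higher and 175 lower, and 6 of the listed genes higher and 2 lower. With a term for the library axis, 709 genes were called higher and 389 lower, of them 5 of the 10 lower and 1 higher (PTPN22) and 8 higher and 3 lower in the lists, and PTPN2 changed sign to -0.0011. The replicate block called 3 genes higher and 0 lower over all genes, and 0 of the 10 and 0 of the lists in either direction. The labels give no meaning to shared replicate numbers. Deviations of same-numbered libraries correlated at -0.65, -0.22 and -0.47. The library axis enters these correlations, so they cannot settle whether same-numbered libraries shared a batch or infection. UBASH3A fell below the filter of at least 1 CPM in 3 libraries and has no value there. Of 448 refitted log2 fold changes of the 30 genes named by rule, 350 kept direction and side of the threshold, 71 lost the call, 26 gained one and 1 changed sign. Depth limits UBASH3A, with 46 counts in all.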
